A study of Mus musculus with 48 samples.

Results

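Whole lung RNA of bleomycin-exposed control mice was set against that of saline-exposed mice. These libraries are 12 of the 48 in the series, chosen by their labels: compartment whole lung, batch S135 or S151, and either bleomycin exposure with a control treatment or saline exposure. The bleomycin control group held 6 mice, 2 of batch S135 (148 and 149, both male) and 4 of batch S151 (204, 206, 208R and 225, of which 3 were male and 1 female). The saline group held 6 mice, 3 of S135 (146, 152 and 153) and 3 of S151 (207, 221 and 230), with 2 males and 1 female in each batch. Mice of both groups received the control treatment of their batch, named Vehicle in S135 and Axum8 in S151, so that control treatment and batch cannot be told apart. The sources used here do not give what Axum8 is, nor the strain, the age, the dose or the time after exposure. Batch S061, whose bleomycin mice have no saline mice beside them, was left out.

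Bleomycin is a DNA-damaging drug that, given to mice, injures the alveolar epithelium and is followed by inflammation, recruitment of immune cells, proliferation of fibroblasts and deposition of collagen. It is the most widely used mouse model of lung fibrosis. RNA of a whole lung mixes epithelial, endothelial, mesenchymal and immune cells, and in such bulk samples fewer cells of a type and less RNA per cell cannot be told apart. The RiboTag method puts an HA tag on a ribosomal protein of chosen cells so that an antibody can pull down their translated RNA, and the labels name anti-HA precipitation and 3'-end libraries for both compartments. The sources used here do not state which cells carried the tag, which Cre was used or how whole lung material was prepared apart from epithelial material.

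Total counts ran from 16172873 to 20468041 in the bleomycin libraries and from 11484883 to 14199637 in the saline libraries of S135, and from 30666578 to 34908999 in the bleomycin and 32130149 to 36945995 in the saline libraries of S151. The files pair no gene with a symbol, and 0 of the 42548 Ensembl IDs matched the reference table of 49997 genes. The labelled tissue therefore could not be checked against lung markers, and genes are described below as groups, with 2 higher and 2 lower genes given by ID and without a function. The gene with the highest mean share of counts over the 12 libraries held 11.7% and 12.8% of the bleomycin and 12.3% to 14.5% of the saline libraries of S135. In S151 it held 0.142% to 1.78% of the bleomycin libraries and 0.363%, 0.556% and 15.3% of the saline libraries, the last in mouse 221. A group of 146 genes that was abundant in every library of S061 and nearly absent elsewhere (termed batch-limited: 50 CPM or more in each of the 12 S061 libraries, where CPM are counts scaled to library size, but a median below 0.5 CPM over S135 and S151) made up 0.846% of the library of bleomycin mouse 149. It made up 0.00297% to 0.0264% of the other bleomycin and 0.00202% to 0.0438% of the saline libraries. Whether this RNA comes from liver was not tested, since its genes carry no symbols.

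The response to bleomycin was broad, and its large changes were mostly rises. With batch as a term, 1044 of 16398 genes tested were higher in bleomycin than in saline lungs (6.37%) and 727 were lower (4.43%), by edgeR's quasi-likelihood test at a Benjamini-Hochberg adjusted p under 0.05. At an unadjusted p under 0.05 there were 4296 genes. DESeq2 called 1372 higher and 1376 lower, so the balance of directions depended on the processing. The genes called higher had a median log2 fold change of 0.86, those called lower of -0.57, and all genes tested of -0.03. By size, 434 genes rose and 81 fell by over 2-fold, 105 rose and 5 fell by over 4-fold, and 30 rose and 1 fell by over 8-fold. The fold changes of called genes reached 5.59 upwards and -4.23 downwards on the log2 scale. Of the 5 falls over 4-fold, 4 were in genes of low level, with a mean of at most 4.52 CPM over the 12 libraries. In 1 gene called lower the CPM of saline mouse 221 was at least 4 times the highest of the other 11 libraries.

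Most called genes had no overlap between the groups once mice were compared within their batch. Of all genes tested, 810 had every bleomycin mouse above every saline mouse within both batches (4.94%) and 612 had every bleomycin mouse below (3.73%). Among the genes called higher 679 of 1044 (65.0%) showed this separation, and among those called lower 447 of 727 (61.5%). The mean difference had the sign of the call in both batches for 1043 of the 1044 genes called higher and for all 727 called lower. Separation and sign were read in the same libraries as the calls, so neither is independent agreement between the batches.

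Rises and falls were spread unevenly over abundance. Among the 4100 genes of lowest mean level (0.204 to 4.52 CPM), 180 were called higher and 29 lower. Among the 4100 of highest mean level (above 49.8 CPM), 289 were called higher and 387 lower, so that falls outnumbered rises there. Of the rises over 4-fold, 58 lay in the lowest group, 25 in the next, 12 in the one above and 10 in the highest. Among genes called higher the median log2 fold change was 1.69 for the lowest and 0.55 for the highest level. Among those called lower it was -1.27 for the lowest and -0.51 for the highest level. These medians cover called genes only, and a gene of low level needs a larger fold change to be called. They therefore do not show that the response itself was larger at low level.

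The first principal component over 14858 genes held 73.0% of the variance and separated S135 from S151. After each batch was centred on its own mean, the first component held 33.4% and placed all 6 bleomycin mice above 0, between 5.22 for mouse 206 and 45.7 for mouse 225. All 6 saline mice lay below 0, between -38.7 for mouse 207 and -17.6 for mouse 152. The second centred component held 15.4% and had mouse 149 at its upper end, at 41.8. Over genes, the log2 levels of replicates of a batch and group correlated at 0.961 to 0.988 for all pairs apart from the 2 bleomycin mice of S135, which correlated at 0.951.

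The 10 largest rises and 10 largest falls were taken among called genes that averaged at least 5 CPM in the higher group, had the same sign in both batches and were still called without mouse 149. The 10 rises had log2 fold changes of 3.86 to 5.59, with group means of 6.11 to 145 CPM in bleomycin and 0.299 to 5.64 CPM in saline lungs. In all 10 the bleomycin mice lay above the saline mice within both batches, and 10 were called within S151 and 3 within S135. The 10 falls were smaller, with log2 fold changes of -2.13 to -1.38 and group means of 1.77 to 19.1 CPM in bleomycin and 5.03 to 77.6 CPM in saline lungs. The groups did not overlap within either batch in 8 of the 10 falls. Of the 10, 7 were called within S151 and 1 within S135. None of the 20 is a batch-limited gene. The demands for 5 CPM and for a call without mouse 149 already worked against such genes. Since the rule asked for a call and for the same sign in both batches, these properties of the 20 genes add nothing to the counts above.

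The largest rise by this rule was that of ENSMUSG00000050359. In S135 its level was 17.6 CPM in bleomycin mouse 148 and 8.49 CPM in mouse 149, against 0.423, 0.649 and 0.177 CPM in saline mice 146, 152 and 153. In S151 it was 59.2, 35.1, 49.7 and 69.6 CPM in bleomycin mice 204, 206, 208R and 225, against 0.567, 1.09 and 1.31 CPM in saline mice 207, 221 and 230. Every bleomycin mouse of either batch lay above every saline mouse, and the bleomycin mice of S151 all lay above those of S135. The log2 fold change of ENSMUSG00000050359 was 5.59 ± 0.32 (SE, n = 6 per group, edgeR adjusted p = 4.26e-07), with 5.02 within S135 and 5.75 within S151. In the epithelial libraries of the same mice ENSMUSG00000050359 had a lowest, median and highest level of 9.37, 74.8 and 219 CPM after bleomycin and of 0.290, 2.37 and 4.25 CPM after saline, so the groups did not overlap there either.

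ENSMUSG00000030077 had the next largest rise. Its level in S135 was 38.3 CPM in bleomycin mouse 148 and 5.62 CPM in mouse 149, against 0.846, 1.95 and 0 CPM in saline mice 146, 152 and 153. In S151 it was 4.81, 2.42, 4.03 and 5.70 CPM in bleomycin mice 204, 206, 208R and 225, against 0.135, 0 and 0.0970 CPM in saline mice 207, 221 and 230. The groups did not overlap, and mouse 148 stood far above the other 5 bleomycin mice. The log2 fold change of ENSMUSG00000030077 was 5.10 ± 0.70 (SE, n = 6 per group, edgeR adjusted p = 0.000856), and 4.65 without mouse 148. The call was not made within S135 alone (log2 fold change 4.65, edgeR adjusted p = 0.299) and was made within S151 (5.69, edgeR adjusted p = 0.00375). In the epithelial libraries of the same mice the levels of ENSMUSG00000030077 overlapped, with a lowest, median and highest of 0, 0.709 and 4.92 CPM after bleomycin and of 0, 0.124 and 3.07 CPM after saline.

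Among the falls, ENSMUSG00000020427 came first. It stood at 10.6 and 12.9 CPM in bleomycin mice 148 and 149, against 37.2, 52.1 and 44.7 CPM in saline mice 146, 152 and 153 of S135. In S151 it stood at 16.2, 37.9, 22.6 and 14.7 CPM in bleomycin mice 204, 206, 208R and 225, against 63.1, 109.2 and 159 CPM in saline mice 207, 221 and 230. The groups did not overlap within either batch; across batches, bleomycin mouse 206 of S151 lay just above saline mouse 146 of S135. The log2 fold change of ENSMUSG00000020427 was -2.13 ± 0.26 (SE, n = 6 per group, edgeR adjusted p = 0.000406), with -1.88 within S135 and -2.27 within S151, and both batches gave a call (edgeR adjusted p = 0.00859 and 0.0131). In epithelial libraries of the same mice its median was 3.45 CPM after bleomycin (1.60 to 10.9 CPM) and 8.66 CPM after saline (4.72 to 25.4 CPM), with overlapping ranges.

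ENSMUSG00000032315 followed. It stood at 3.64 and 9.04 CPM in bleomycin mice 148 and 149, against 9.83, 24.5 and 13.7 CPM in saline mice 146, 152 and 153 of S135. In S151 it stood at 4.88, 8.89, 4.30 and 12.1 CPM in bleomycin mice 204, 206, 208R and 225, against 16.4, 34.9 and 57.8 CPM in saline mice 207, 221 and 230. The groups were apart within each batch by narrow margins, and bleomycin mouse 149 reached almost the level of saline mouse 146. The log2 fold change of ENSMUSG00000032315 was -1.89 ± 0.40 (SE, n = 6 per group, edgeR adjusted p = 0.0100) and -2.22 without mouse 149. It was called within S151 (-2.26, edgeR adjusted p = 0.0252) but not within S135 (-1.29, edgeR adjusted p = 0.244). Its epithelial levels in these mice were low in both groups, with a median of 0.645 CPM after bleomycin (0.268 to 1.86 CPM) and 0.994 CPM after saline (0.0768 to 2.78 CPM).

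**Figure D1:**
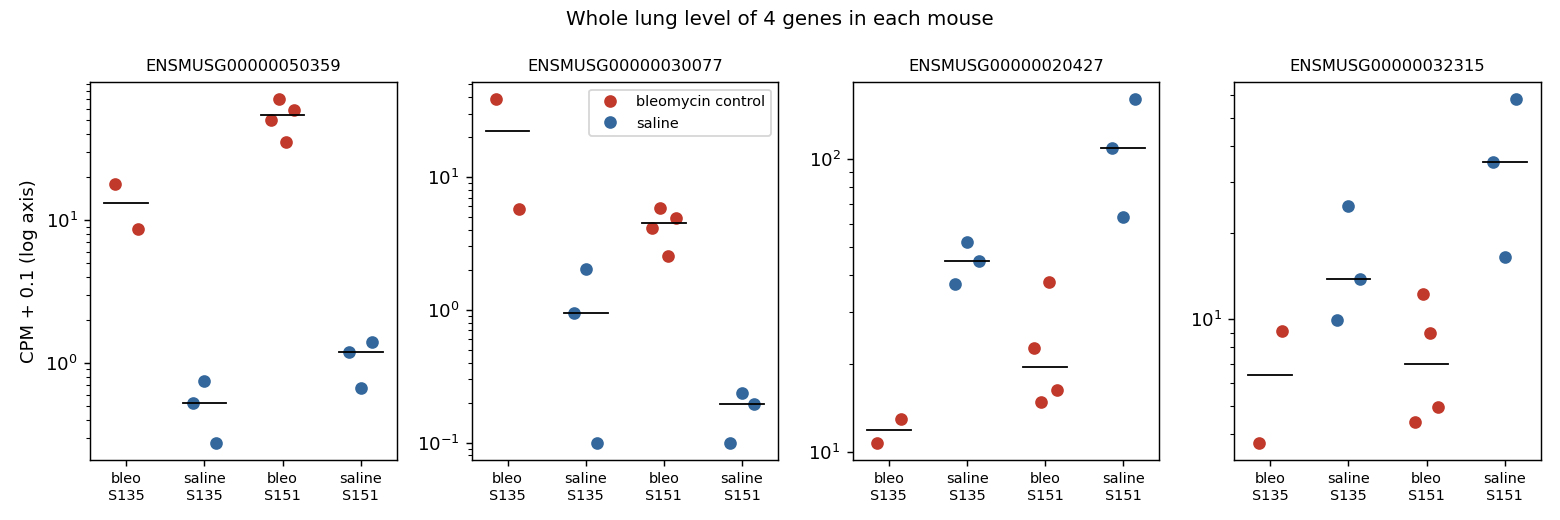
CPM plus 0.1 on a log axis in each of the 12 mice for the 2 largest rises (left) and the 2 largest falls (right) by the rule for named genes, split by batch, with bleomycin control mice in red, saline mice in blue and the median of each batch and group as a bar. ENSMUSG00000050359 lies at 8.49 to 69.6 CPM in bleomycin and 0.177 to 1.31 CPM in saline mice, and mouse 148 stands alone at 38.3 CPM for ENSMUSG00000030077.

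The batches, which share no mouse, allowed the response of each to be read in genes picked in the other. Within S135, with 2 bleomycin against 3 saline mice, 61 of 15598 genes tested were higher (0.391%) and 18 lower (0.115%). Within S151, with 4 against 3, 595 of 16924 were higher (3.52%) and 179 lower (1.06%). Of the 61 genes called higher in S135, 59 were tested in S151. There 58 had a positive fold change, 37 were called higher, and the median log2 fold change was 1.29, against -0.02 over all genes tested in S151 and 1.34 for the same set in S135. The 18 genes called lower in S135 were negative in 17 cases in S151, with 3 called lower and a median of -0.59.

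In the opposite direction, 523 of the 595 genes called higher in S151 were tested in S135, where 506 were positive (96.7%, against 51.6% of all genes tested there). Their median log2 fold change was 1.01 and 37 of them were called. Of the 179 called lower in S151, 174 were tested in S135, 160 were negative, 3 were called and the median was -0.51. No gene was called in opposite directions in the 2 batches. Over the 14734 genes tested in both, the log2 fold changes correlated at 0.473 (Pearson) and 0.473 (Spearman); this is across genes, which are not independent replicates.

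**Figure D2:**
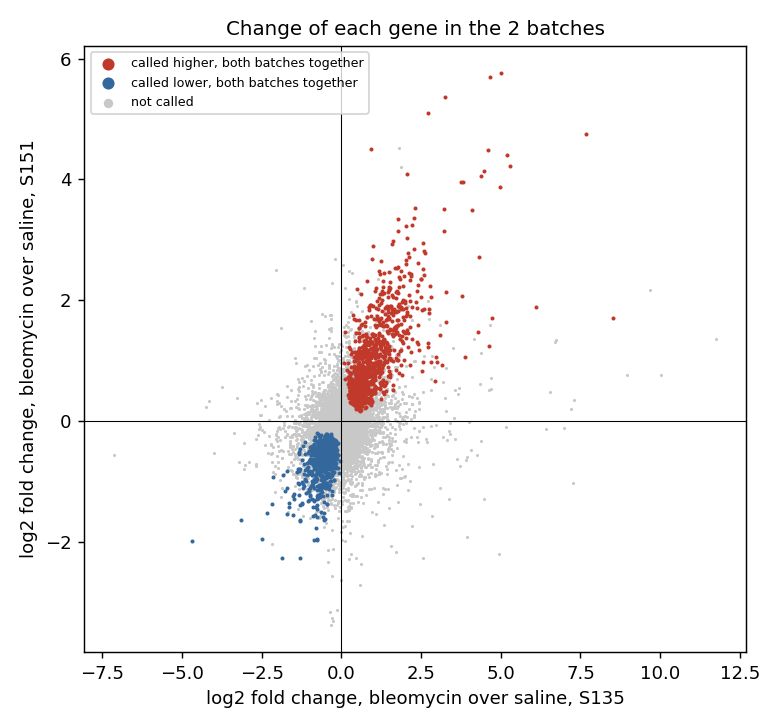
Log2 fold change of bleomycin over saline within S135 (horizontal) and within S151 (vertical) for each gene tested in both batches; red points were called higher and blue points lower with the batches together. Nearly all called genes lie in the lower left and upper right, while the uncalled points far to the right have log2 fold changes of over 5 within S135 and smaller ones within S151.

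These genes took up a measurable share of the RNA. The 61 genes called higher in S135 held 1.05% ± 0.146 (SD, n = 4) of counts in the bleomycin and 0.487% ± 0.0879 (SD, n = 3) in the saline libraries of S151, with ranges of 0.888% to 1.23% and 0.412% to 0.584%. The 595 genes called higher in S151 held 2.21% and 3.95% of the bleomycin libraries of S135, against 1.42% to 1.49% of the saline libraries. The 179 called lower in S151 held 1.24% and 1.64% after bleomycin and 1.78% to 2.14% after saline. For the 18 genes called lower in S135 the ranges in S151 overlapped, at 0.301% to 0.342% after bleomycin and 0.321% to 0.508% after saline.

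No gene passed edgeR's test of the exposure by batch interaction, which asks whether the response differed between the batches (0 of 16398 at an adjusted p under 0.05, lowest adjusted p 0.256). At an unadjusted p under 0.05 there were 1150 genes (7.01%), DESeq2 called 45, and edgeR called 106 when bleomycin mouse 148 was left out, which leaves mouse 149 as the lone bleomycin mouse of S135.

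The bleomycin mice differed in the size of their response. Each mouse was scored by its median log2 difference from the saline mice of its batch, and a saline mouse from the other saline mice only. The genes were chosen by their call in the other batch, whether or not they were also called in the batch of the mouse. In S135, over 589 genes called higher in S151, the median was 1.15 in mouse 148 and 0.50 in mouse 149, against -0.01 to 0 in the saline mice. Over 178 genes called lower it was -0.81 in mouse 148 and -0.29 in mouse 149, against -0.19 to 0.07 in the saline mice. Mouse 148 exceeded mouse 149 in 514 of the 589 genes, so the smaller response belonged to the mouse with the batch-limited RNA; whether that RNA played a part was not tested.

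In S151, over the 61 genes called higher in S135, the medians were 1.16, 0.90, 1.14 and 1.25 in bleomycin mice 204, 206, 208R and 225, against -0.17, -0.09 and 0.32 in saline mice 207, 221 and 230. Mouse 225, the only female of the 4, was the highest in 33 of the 61 genes, mouse 204 in 16, mouse 208R in 9 and mouse 206 in 3. Over the 18 genes called lower in S135 the bleomycin mice lay at -0.65 to -0.47 and the saline mice at -0.18 to 0.51. Saline mouse 230, the only female saline mouse of S151, was the highest saline mouse on both scores. With 1 female in each of these groups, sex and mouse cannot be told apart.

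**Figure D3:**
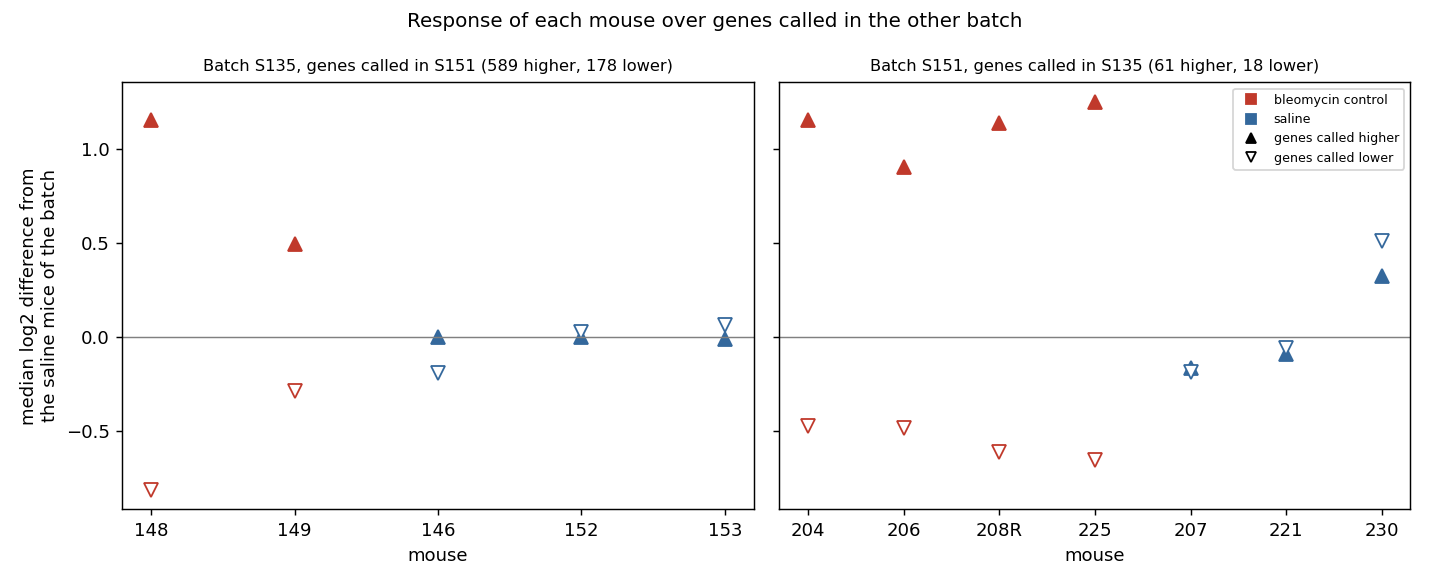
Median log2 difference of each mouse from the saline mice of its own batch (a saline mouse from the other saline mice only), over genes called in the other batch. Filled triangles mark genes called higher and open triangles genes called lower, with bleomycin control mice in red and saline mice in blue. The batches were scored over different genes. In S135 (589 higher and 178 lower genes) mouse 148 lies at 1.15 and -0.81, and mouse 149, nearer to the saline mice, at 0.50 and -0.29. In S151 (61 higher and 18 lower genes) bleomycin mice lie at 0.90 to 1.25 and at -0.65 to -0.47.

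Leaving out mice in turn showed which libraries the calls rest on. Without mouse 148 the counts fell to 587 higher and 287 lower. The count of lower genes also moved by over 1.5 times without bleomycin mice 208R (398) and 225 (472), and that of higher genes without saline mouse 207 (693). Without mouse 149 the counts were 1164 higher and 876 lower, the highest of the 12 fits. Among the genes called in the fit of all 12 libraries, 529 higher and 260 lower calls were made in each of the 12 fits. No called gene changed sign in any of them, though the fits share most of their libraries and are not independent.

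**Figure D4:**
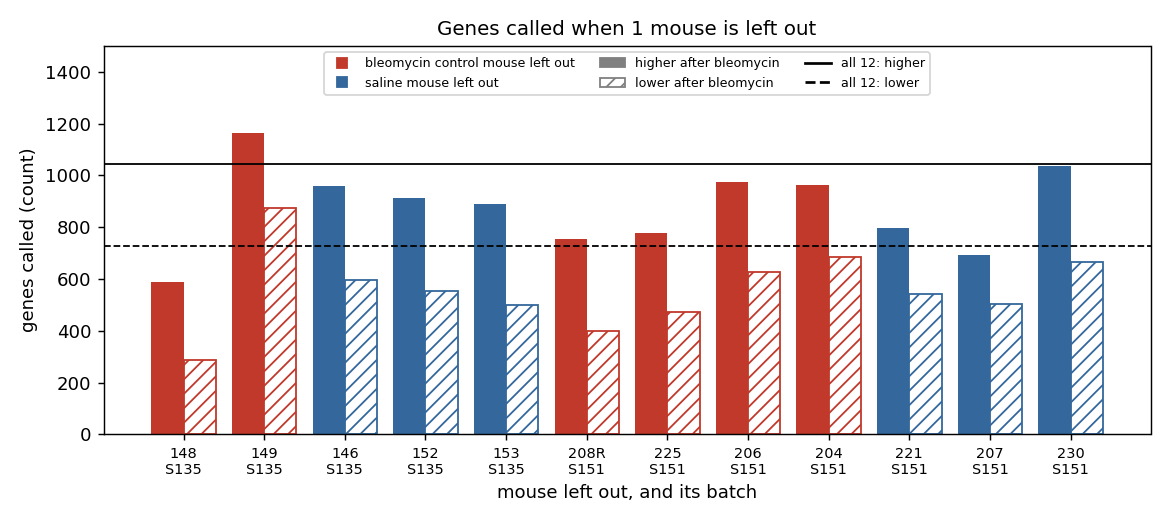
Number of genes called higher (solid bars) and lower (hatched bars) after bleomycin when the mouse named under the bars is left out, with bleomycin control mice in red and saline mice in blue; the solid and dashed lines mark the 1044 higher and 727 lower calls with all 12. The counts are lowest without mouse 148 and highest without mouse 149.

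Few of the rises rested on mouse 149, the S135 library that carries the batch-limited RNA. Of the 1044 genes called higher, 97 (9.29%) were not called without it, the fewest lost for any of the 12 mice (97 to 470). All 97 kept a positive fold change, with a median log2 fold change of 0.52 with and 0.47 without mouse 149, and a median edgeR adjusted p of 0.0613 without it (0.0502 to 0.156). Mouse 149 was the highest of the 12 libraries in 9 of the 97 and at most 1.67 times the next highest. None of the 97 was a batch-limited gene, and in none was mouse 149 at least 4 times the highest of the other 11 libraries. The 5 of largest fold change ran from 1.68 to 2.45 on the log2 scale with mouse 149 and from 1.52 to 2.40 without it. None of the 50 largest rises among called genes was lost.

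Genes that stood out in mouse 149 mostly went without a call, some of them at a large fold change. In 73 tested genes the CPM of mouse 149 was at least 4 times the highest of the other 11 libraries, against 0 to 10 genes for each other mouse. Of the 73 genes, 28 were batch-limited, out of 33 batch-limited genes tested, and the rest were not. In the 73 genes mouse 149 had a median of 28.3 CPM (4.20 to 3514 CPM). Since they were picked by their level in mouse 149, a smaller fold change without it follows from the choice. The median log2 fold change of the 73 was 1.75 with and 0.09 without mouse 149. Of the 73, 67 were not called, 27 of them with a log2 fold change above 2. The largest fitted log2 fold change over all genes tested, 8.11, was of this kind: it had an edgeR adjusted p of 0.118 and was 1.55 without mouse 149. Of the 11 tested genes above 5 on the log2 scale, 5 were called.

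The other 6 of the 73 genes were called higher, and were still called without mouse 149. Their log2 fold changes ran from 1.81 to 5.30 with it and from 0.95 to 4.27 without it. In mouse 149 these 6 genes stood at 5.18 to 43.9 CPM, while the means of the other 5 bleomycin mice ran from 0.577 to 4.66 CPM and the highest saline value was 2.73 CPM. The median of the 6 was 3.42 with and 2.35 without mouse 149. Of the 6, 3 were batch-limited genes. In the fit without mouse 149, 8 of the 73 genes were called higher, beside 1164 of the 16657 genes tested there.

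Of the 146 batch-limited genes, 33 passed the filter on low counts. In these 33 the median log2 fold change was 2.06 with mouse 149 and 0.31 without it, and 3 were called higher (9.09%, against 6.37% of all genes tested). In the fit without mouse 149, 4 of 33 tested were called higher, beside 1164 of 16657 genes in all. Within S151, which does not hold mouse 149, 1 of 35 tested was called higher, a share near the 3.52% of all genes tested there, and their median was 0.51, against -0.02 for all. The 30 that were not called with the 12 libraries reached log2 fold changes of up to 8.07 there. The calls depended on which libraries shared the fit: with all 24 whole lung libraries of the 3 batches, 32 batch-limited genes were called higher and held 9 of the 10 largest rises. With the 12 libraries, 3 were called and held 1 of the 10 largest rises among all called genes.

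**Figure D5:**
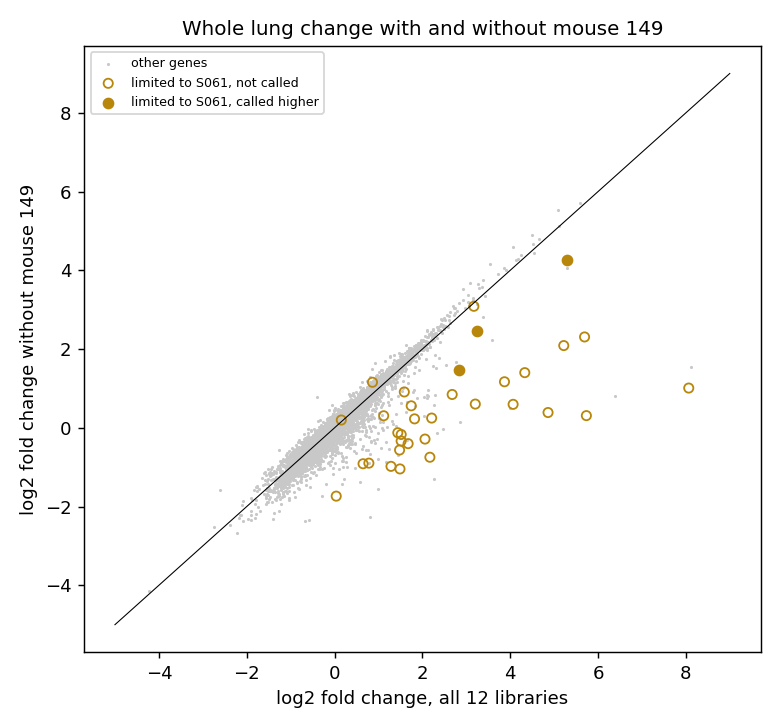
Log2 fold change of bleomycin over saline with all 12 libraries (horizontal) and without mouse 149 (vertical) for each gene tested in both fits; grey points are other genes, open circles batch-limited genes that were not called and filled circles the 3 that were called higher. Most batch-limited genes lie far below the line of equal values, with a median of 2.06 with and 0.31 without mouse 149.

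Genes with no count in 1 of the groups were few. In 6 genes no saline library held a count while all 6 bleomycin libraries did, and 2 of the 6 were batch-limited. None was called, and their level over the bleomycin libraries ran from 0.103 to 3.73 CPM. How many of the 6 passed the filter on low counts was not counted, so some may not have been tested. With saline set to 3 counts summed over its 6 libraries the 6 genes were at least 4.86-fold to at least 176-fold higher. These bounds cover counting error only, not the spread between mice. The opposite pattern, counts in all 6 saline and in no bleomycin library, was seen in 0 genes.

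Genes that differ between the compartments in saline mice were set beside all genes tested. They were defined in saline mice of the batch not tested, as genes at least 2-fold higher (epithelium-enriched) or lower (epithelium-depleted) in the epithelial than in the whole lung library of each of 3 mice. In S151, 33 of 930 enriched genes were called higher (3.55%) and 17 lower (1.83%), and 117 of 2280 depleted genes were called higher (5.13%) and 55 lower (2.41%), beside 3.52% and 1.06% of all genes tested. The median log2 fold changes were -0.06 for enriched and -0.09 for depleted genes, beside -0.02 for all. For enriched genes the share called higher was near that of all genes tested. In S135, 6 of 1174 enriched genes were called higher (0.511%) and 1 lower (0.0852%), and 15 of 2611 depleted genes were called higher (0.574%) and 10 lower (0.383%), beside 0.391% and 0.115% of all genes tested, with medians of 0.08 and -0.01 beside 0.01 for all.

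Their share of whole lung counts overlapped between the groups except for enriched genes in S135. Enriched genes held 15.8% ± 2.36 (SD, n = 4) after bleomycin and 18.6% ± 3.22 (SD, n = 3) after saline in S151, with overlapping ranges. In S135 they held 11.6% ± 0.686 (SD, n = 2) after bleomycin and 13.3% ± 0.265 (SD, n = 3) after saline, without overlap. Depleted genes held 17.1% ± 1.27 (SD, n = 4) after bleomycin and 16.7% ± 2.85 (SD, n = 3) after saline in S151, and 25.8% and 29.6% after bleomycin against 25.6% to 27.5% after saline in S135.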

How the data were processed

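The authors deposited 1 table of whole-number read counts, not normalized, for 42548 Ensembl mouse genes in 48 libraries of 24 mice, all of whose columns matched a labelled sample. The submitters' processing notes name STAR 2.5.2b and the GRCm38 build; the sources used here give neither the program that counted reads nor its annotation. Without a stated strand setting, overlapping genes cannot be told apart.

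Counts were tested in R 4.3.3 with edgeR 4.0.16 (TMM scaling, filterByExpr on exposure, robust dispersions, quasi-likelihood test, Benjamini-Hochberg adjustment, called at 0.05), with batch and exposure as terms over 12 libraries, then within each batch and as an interaction. Standard errors were taken as the size of the log2 fold change over the square root of F. CPM are counts scaled to library size, with TMM scaling for the 4 genes given by ID and plain library totals where mouse 149 is set against the other libraries; scores per mouse used log2(CPM + 0.5). DESeq2 1.42.0, limma 3.58.1 (voom with quality weights), RLE scaling, other filters, other terms and mice left out were tried. The edgeR script was tested on simulated data.

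Named genes were the 10 largest fold changes per direction among called genes with at least 5 CPM in the higher group, the same sign in both batches and a call without mouse 149; a rise was said to rest on mouse 149 where its call was lost without it. The 52 lists of gene symbols, which include cell type markers, could not be applied because no ID is paired with a symbol, so at most 2 IDs are given per direction. Members and lists were chosen with earlier results of these data known. Mice carry separate identifiers, so replicates are separate animals, and SDs and SEs hold the spread between mice. The floor of 3 counts for genes without a count covers counting error only. Total counts of 11484883 to 36945995 per library set the depth.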

Additional observations from a re-analysis of the deposited data

Results flagged for a closer look

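A library far from the others of its group was looked for in 16 sets of values by Dixon's criterion. Chance meets it in about 1 of 20 sets drawn from 1 normal population. The sets of gene levels and library shares pooled both batches, so a library apart only within its batch could be missed. The most abundant gene in saline mouse 221 was not flagged (15.3% of counts, against 0.363% and 0.556% in the other saline mice of S151). ENSMUSG00000030077 stood at 38.3 CPM in bleomycin mouse 148, against 5.70 CPM in the next highest bleomycin mouse. The batch-limited genes held 0.846% of counts in the whole lung library of bleomycin mouse 149, against 0.0264% in the next highest bleomycin library. Among the saline mice the batch-limited genes held 0.0438% of counts in mouse 146, against 0.00834% in the next highest saline library. The epithelial library of mouse 149, which enters no test here and serves above only for the levels of the 4 genes given by ID, held 0.0529% of batch-limited RNA, above the highest epithelial library of a saline mouse (0.00717%), so both libraries of this mouse stood above the saline mice.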

How the results depend on the processing

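Counts of called genes moved with the tool and the mice. No gene called in the fit of 12 libraries was called the opposite way under any of 21 alternatives. Since the alternatives reuse these libraries, an opposite call was unlikely from the start. DESeq2 called 1372 genes higher and 1376 lower, with 371 adjusted p-values not given by the tool, and its set held 1040 of the 1044 higher and 727 of the 727 lower calls. Its share of higher calls was 49.9%, against 58.9% in edgeR. With RLE scaling in place of TMM, edgeR called 970 higher and 856 lower, a share of 53.1% higher. limma voom with quality weights called 1985 higher and 1811 lower. With sex as a term, edgeR called 1248 higher and 969 lower, and these held 1022 of the 1044 higher and 662 of the 727 lower calls. Without a batch term 125 were higher and 11 lower, and ENSMUSG00000030077 and ENSMUSG00000032315 lost their calls (edgeR adjusted p = 0.124 and 0.0821). Those were the only calls of the 4 genes lost, over 84 results in all. The 4 genes were picked as called, also without mouse 149, and the alternatives reuse the same libraries, so this tally is no independent support. Library sizes without the batch-limited genes, an alternative chosen after seeing the data in place of the liver gene list, gave 1044 higher and 718 lower. With 1 mouse left out, higher calls ran from 587 to 1164 and lower calls from 287 to 876. Within S135 the 79 calls became 713 in DESeq2 and 664 without a filter on low counts, and ran from 0, without saline mouse 152 or 153, to 919 without bleomycin mouse 149; they were 3 without saline mouse 146 and 452 without bleomycin mouse 148. Where 1 bleomycin mouse was left in S135, it was assumed to vary like the saline mice. Within S151 the 774 calls became 1906 in DESeq2 and ran from 156, without saline mouse 207, to 1249 without saline mouse 230; they were 208 without bleomycin mouse 208R, 213 without saline mouse 221, 386 without bleomycin mouse 204 and 428 without bleomycin mouse 225. The interaction had 45 calls in DESeq2 and ran from 0 to 106 with 1 mouse left out. The cause of these shifts was not tested. The liver gene list as a normalization alternative and the counts by gene list were not run, since no symbol was available. No paired analysis was possible because the groups compared share no mouse. S135 was sequenced less deeply, and 15598 genes passed its filter on low counts, against 16924 in S151.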
